A study of Homo sapiens with 22 samples.

Results

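The alkaline phosphatase gene cluster on human chromosome 2 holds ALPP, the placental enzyme, ALPPL2, the placental-like enzyme that is also made by germ cells, and ALPI, the intestinal enzyme. Binding of estrogen receptor alpha (ESR1) to this cluster was described from peak lists of chromatin immunoprecipitation sequencing (ChIP-seq), an assay that recovers and sequences the DNA to which a protein is bound. Every peak that overlapped the window from 233.2 to 233.36 Mb of chromosome 2 in GRCh37 (hg19), 160 kb in length, was taken, which gave 225 of the 356467 peaks in 20 lists. Peaks from different lists that shared 1 bp or more were joined into 1 region, and the window held 56 of the 93612 regions.

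The cells were clones of Ishikawa, an endometrial adenocarcinoma line, that carried a FLAG tag on ESR1, and the tag was the target of the precipitating antibody. ESR1 was either wild type or held D538G, a substitution in the ligand-binding domain. All cells, controls included, were kept for at least 5 days in hormone-deprived medium and then received 10 nM estradiol (E2), or 0.1% DMSO as the solvent control, for 1 h. The groups were wild type with DMSO (4 libraries), wild type with E2 (4), D538G with DMSO (6) and D538G with E2 (6), from 2 wild-type and 3 D538G clones with 2 replicates of each clone and treatment. Libraries of 1 clone share their cell line, and whether replicates were separate cultures is not stated, so p-values over libraries measure only the spread between these libraries. The study also had 2 input libraries, which were not used here, so no background level was measured. Whether these clones made the 3 enzymes cannot be read from peak lists.

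Alkaline phosphatases remove phosphate groups from many substrates and are held on the outer face of the cell membrane by a lipid anchor. Alkaline phosphatase activity of Ishikawa cells has long served as a bioassay for estrogens. Liganded ESR1 binds DNA as a dimer at estrogen response elements, whose consensus is GGTCA, any 3 bases and TGACC, and it also binds a single GGTCA and reaches DNA through other factors. D538G is among the recurrent substitutions that allow the receptor to act without ligand.

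The window was compared with the gene order of RefSeq on a later build, in which DIS3L2 precedes ALPP, followed by ALPPL2 (listed there as ALPG), ALPI and ECEL1. The coordinates of that build cannot be set beside those of the peak lists, so no peak was assigned to an exon, an intron, a promoter or 1 of the 3 genes. The 3 enzymes are close relatives, and how reads that fit more than 1 copy were handled is not given in the sources used here, so a peak in sequence shared by the copies is uncertain as to its copy.

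The promoter sequences show this kinship and are printed because each holds a pair of GGTCA motifs. The stretches below run from 160 to 21 bases before the RefSeq start of each gene (GRCh38.p14), 5′ to 3′ on the strand of the gene, and capitals mark GGTCA.
ALPP: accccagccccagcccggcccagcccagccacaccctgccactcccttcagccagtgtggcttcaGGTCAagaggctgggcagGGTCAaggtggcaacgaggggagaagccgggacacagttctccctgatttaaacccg
ALPPL2: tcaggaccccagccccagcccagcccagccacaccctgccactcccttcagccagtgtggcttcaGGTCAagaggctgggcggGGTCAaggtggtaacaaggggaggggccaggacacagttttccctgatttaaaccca
ALPI: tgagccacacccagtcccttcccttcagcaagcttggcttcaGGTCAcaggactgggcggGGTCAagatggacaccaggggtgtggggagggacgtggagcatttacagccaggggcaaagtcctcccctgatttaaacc

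All 3 promoters held GGTCA 2 times on the strand of the gene, with starts 18 bases apart. Counted from the start of the gene, the first lay at -95 in ALPP and in ALPPL2 and at -118 in ALPI. GGTCA, searched on both strands over 300 bases, occurred in 37.4% of the 35116 RefSeq promoters, so a single match is common. At least 2 matches on the strand of the gene occurred in 3.21% of promoters, and a pair with this spacing, which was chosen after the sequences were seen, in 16 promoters (0.0456%), these 3 included. The full element was in none of the 3 and in 20 of all promoters (0.0570%). The ALPP and ALPPL2 promoters were identical at 82.7% of aligned positions, ALPP and ALPI at 59.8%, and ALPPL2 and ALPI at 58.4%, so the 3 pairs of motifs are not independent. The match is a description of the letters, and no peak was tied to these promoters.

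Peaks in the window were found in 18 of the 20 lists. The wild-type DMSO libraries had 0 and 3 peaks (clone 1, replicates 1 and 2) and 0 and 2 peaks (clone 2). The wild-type E2 libraries had 8 and 22 peaks in clone 1 and 4 and 18 in clone 2. Among D538G libraries with DMSO the lowest number was 3, the median 6.5 and the highest 35. Among D538G libraries with E2 the lowest was 3, the median 10.5 and the highest 38. All wild-type E2 libraries therefore lay above all wild-type DMSO libraries, while both D538G groups covered the range of the wild-type E2 group.

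The length of the whole list moved with the number of peaks in the window. The lists with no peak in the window were the shortest, with 51 and 45 peaks in all, and the lists with 35, 29 and 38 peaks in the window were the longest, with 50382, 54903 and 49223. Read depth is unknown, so few reads, poor enrichment and few bound sites cannot be told apart in a short list. The exception to this relation was the wild-type DMSO list of clone 1 replicate 2, which held 29118 peaks and only 3 in the window. That is 0.103 window peaks per 1000 peaks of the list, against 0.503 to 1.85 in the other 17 lists that had any.

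**Figure D1:**
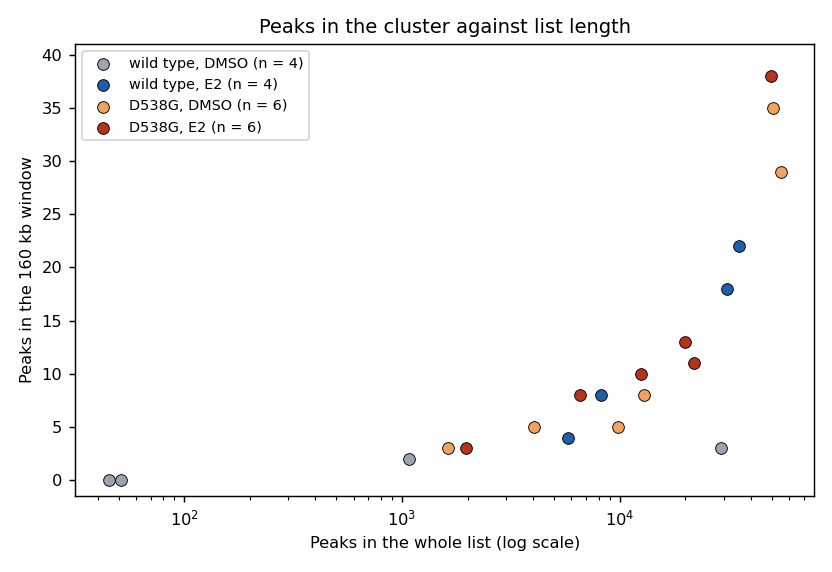
Number of peaks in the 160 kb window (vertical axis) against the number of peaks in the whole list (horizontal axis, log scale) for each of the 20 libraries, coloured by group. The wild-type DMSO library with 29118 peaks lies far below other lists of like length, with 3 window peaks where the wild-type E2 list of 31108 peaks has 18.

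The first comparison was E2 against DMSO in wild-type clones. The mean number of window peaks was 13 ± 8.41 (SD, n = 4) with E2 and 1.25 ± 1.5 (SD, n = 4) with DMSO, a difference of 11.75, and it was higher with E2 in 4 of 4 pairs of the same clone and replicate number. The exact two-sided permutation p was 0.0286, the smallest that 4 against 4 libraries allow, and 0.143 after Benjamini-Hochberg adjustment over the 5 comparisons of peak number, so the difference did not pass. Per 1000 peaks of the list the difference over all lists was 0.229 (0.718 with E2 and 0.489 with DMSO). Without the lists of 45 and 51 peaks it was -0.260, where the DMSO mean rests on 2 lists, at 0.103 and at 1.85 from 2 peaks.

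In D538G clones the mean was 13.8 ± 12.3 (SD, n = 6) with E2 and 14.2 ± 14.0 (SD, n = 6) with DMSO. The difference of -0.333 was far smaller than the spread (exact permutation p = 1), and E2 was higher in 4 of 6 pairs. Between genotypes under DMSO, D538G had 12.9 more peaks than wild type (exact permutation p = 0.129, adjusted p = 0.321). Under E2 the difference was 0.833 (exact permutation p = 0.948). The E2 effect in D538G minus that in wild type was -12.1 peaks, and this difference did not pass either (exact permutation p = 0.343, adjusted p = 0.571). The genotype difference under E2 turned to -4 without the D538G E2 list of clone 3 replicate 2, to -0.833 without the wild-type E2 list of clone 1 replicate 1 and to -2.17 without that of clone 2 replicate 1.

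Window peaks were also counted among the 1000 strongest of each list, which shortens the long lists and leaves those of 45 and 51 peaks as they are. By this count the wild-type DMSO libraries had 0 to 2 peaks, the wild-type E2 libraries 1 or 2, the D538G DMSO libraries 2 to 4 and the D538G E2 libraries 2 or 3. The D538G minus wild-type difference was 2.17 under DMSO (exact permutation p = 0.0190) and 1.17 under E2 (exact permutation p = 0.0333), both with an adjusted p of 0.0833 over the 5 comparisons, which did not pass. Without the lists of 45 and 51 peaks the difference under DMSO was 1.67 (exact permutation p = 0.214, 6 against 2 libraries).

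Peaks in 2 or more libraries were found in 33 of the 56 regions, and a peak in only 1 library in 23. The latter are 41.1% of the window, near the 43.8% over all regions of the genome. Of those 23, the D538G DMSO list of clone 1 replicate 2 gave 10, that of clone 2 replicate 2 gave 6, the D538G E2 list of clone 3 replicate 2 gave 6 and the wild-type E2 list of clone 1 replicate 2 gave 1. The 4 regions with peaks in the most libraries are called sites A to D here, in their order on the chromosome. Site A was chr2:233238425-233240758, site B chr2:233298862-233300112, site C chr2:233306535-233307807 and site D chr2:233321930-233324190. Their median summits, the points of highest signal, were 59338 bp (A to B), 8217 bp (B to C) and 15400 bp (C to D) apart.

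**Figure D2:**
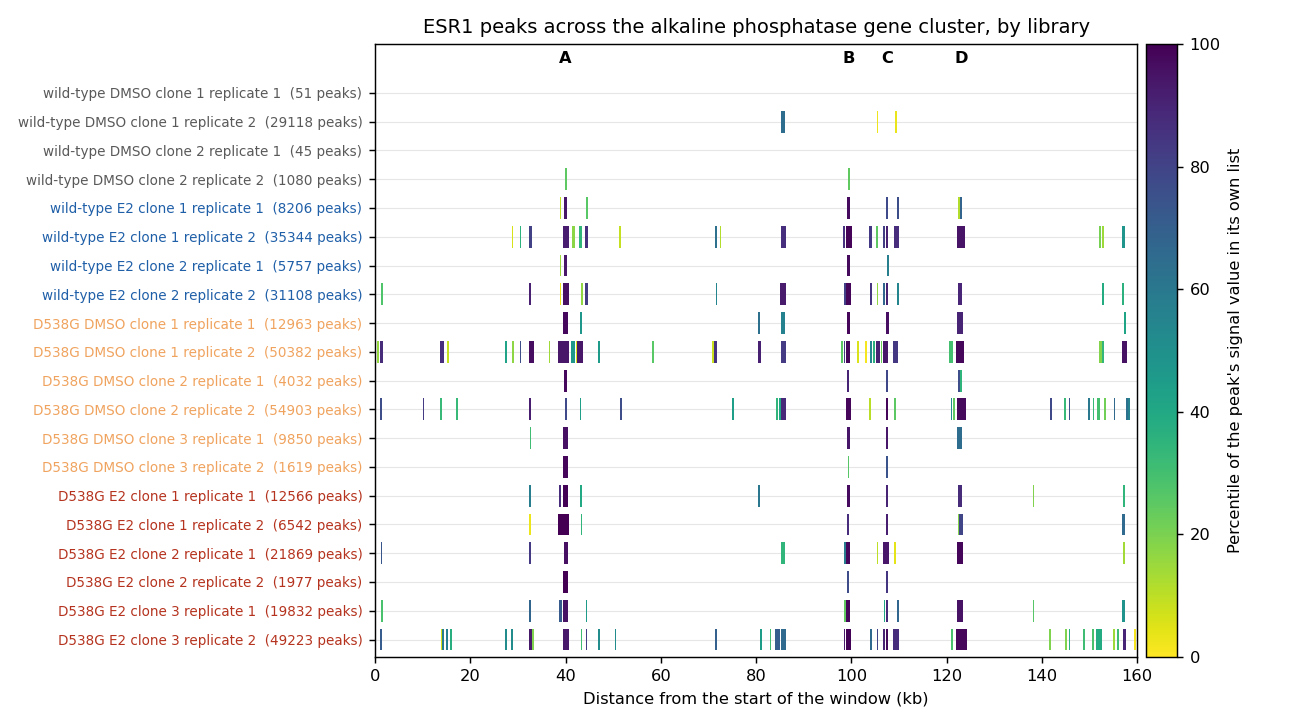
Peaks of each library (rows, with the length of the whole list) along the 160 kb window, as distance in kb from its start, coloured by the percentile of the peak's signal value in its own list. Sites A, B and C recur in all 16 libraries outside the wild-type DMSO group, and the row of the wild-type DMSO list of 29118 peaks is empty at all 4 sites.

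Sites A and B each had peaks in 17 libraries. In wild type these were 1 of 4 libraries with DMSO and 4 of 4 with E2, and in D538G 6 of 6 with DMSO and 6 of 6 with E2. Site C had peaks in 16 libraries, with 0 of 4, 4 of 4, 6 of 6 and 6 of 6 in the same order. Site D had peaks in 13 libraries, with 0 of 4, 3 of 4, 5 of 6 and 5 of 6. The D538G clones thus had peaks at A, B and C in every library without added hormone, and the wild-type clones had them in every library with it.

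The libraries without peaks at these sites were not only the short ones. The wild-type DMSO list of clone 1 replicate 2 had none at A to D, although it held 29118 peaks. Its 3 window peaks lay in the regions chr2:233283985-233286363, chr2:233305230-233306016 and chr2:233308796-233309990, at percentiles 64.8, 2.58 and 3.21 of its list. The wild-type DMSO list of clone 2 replicate 2, with only 1080 peaks, had A at rank 813 and B at rank 816.

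Among regions of the genome bound as widely as A, B and C, absence from the list of clone 1 replicate 2 was the less common pattern. Peaks in all 16 libraries outside the wild-type DMSO group were found in 659 regions, A, B and C among them. Of these, 451 (68.4%) had a peak in the wild-type DMSO list of clone 1 replicate 2, and 346 (52.5%) in that of clone 2 replicate 2. The wild-type DMSO lists of 51 and 45 peaks (clone 1 replicate 1 and clone 2 replicate 1) had a peak in only 27 and 26 of the 659. Absence from the wild-type DMSO group therefore rests mainly on the lists of replicate 2. Site C was among 189 (28.7%) with a peak in none of the 4 wild-type DMSO lists. Sites A and B were among 140 (21.2%) with a peak in 1 of the 4. A peak in 2 of the 4 was the most frequent count, in 295 (44.8%). By list, A and B were among 17 (2.58%) with a peak in that of clone 2 replicate 2 and none in that of clone 1 replicate 2.

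Presence was tested region by region with Fisher's exact test, two-sided, over all regions with peaks in at least 2 of the libraries compared. After adjustment no region of the genome passed 0.05 in the 4 comparisons (0% called in each), so the counts below rest on unadjusted values. For E2 against DMSO in wild type, 9.34% of 29233 regions had an unadjusted p under 0.05. In the window 1 of 15 regions did, which is near that background. Without wild-type DMSO clone 2 replicate 2, 3 did, against 9.63% over the genome. Without wild-type E2 clone 2 replicate 1, 3 did, against 13.1%. With the replicate block, which compares within pairs, the smallest possible p is 0.125 and no region is under 0.05. The 1 region was site C, with 4 of 4 against 0 of 4 libraries (Fisher's exact p = 0.0286, adjusted p = 0.306). Sites A, B and D had a Fisher's exact p of 0.143. The wild-type DMSO group held the lists of 51 and 45 peaks, so its absences rest mainly on the other lists.

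For D538G against wild type under DMSO, 3.57% of 32172 regions had an unadjusted p under 0.05, against 4 of 16 in the window (25%). These 4 were sites A to D, all with peaks in more D538G libraries. Site C, with 6 of 6 against 0 of 4, had a Fisher's exact p of 0.00476 and an adjusted p of 0.585. That contrast was shared by 262 regions of the genome, and C was the only one in the window. Sites A and B had a Fisher's exact p of 0.0333 and site D 0.0476. The share of 3.57% includes regions in as few as 2 libraries, whereas A, B and C were in all 16 outside wild-type DMSO. Of the 659 regions of that kind, 189 (28.7%) were in 0 wild-type DMSO lists, as C was. Another 140 (21.2%) were in 1, as A and B were. Those regions have the same p-values, so such values at A, B and C are not particular to the window. The 4 sites share the same libraries, so their counts are not independent of each other. The wild-type DMSO lists of 51 and 45 peaks could hardly hold a peak at any given site. Absence in that group therefore rests mainly on the other lists, and presence was not tested without both short lists. When certain single wild-type DMSO lists were left out, 2 of the 4 sites stayed under 0.05 (C and D). These lists were clone 1 replicate 1, clone 1 replicate 2 and clone 2 replicate 1. A and B then had a Fisher's exact p of 0.0833. Over the genome the shares under 0.05 were 2.87%, 7.02% and 2.87%, in the same order. Among the 1000 strongest peaks of each list only C was under 0.05 (Fisher's exact p = 0.0476). That was 1 of 4 window regions, against 14.1% of 1580 regions of the genome. With the replicate number as a block, D had an exact permutation p of 0.06 and the regions of the genome under 0.05 went from 1150 to 491.

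Within D538G, for E2 against DMSO, 0.0200% of 44920 regions and 0 of 29 in the window had an unadjusted p under 0.05. For D538G against wild type under E2, the share was 1.21% of 35729 regions and 0 of 20 in the window. Sites A, B and C had peaks in every library of both comparisons, so no difference in presence could be seen there.

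How high a site stood within its own list was described by its percentile, the share of peaks in that list with a signal value no higher than that of the site. The signal values are the authors' own and served only for the order of peaks inside each list. Over the libraries with a peak, the median percentile was 95.8 at A, 97.6 at B, 90.9 at C and 89.9 at D. All 4 thus lay mostly among the stronger peaks of their lists. The 4 were chosen for their number of libraries, however, and percentiles of other regions bound as widely were not computed. Whether these values are high for such regions is therefore unknown.

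Site A stood at percentiles 94.2 and 91.9 in the wild-type E2 libraries of clone 1 (replicates 1 and 2) and at 94.0 and 95.8 in those of clone 2. In D538G with DMSO its lowest percentile was 77.6, the median 96.9 and the highest 98.2. In D538G with E2 the lowest was 93.5, the median 97.7 and the highest 99.98. In 2 D538G E2 libraries it was near the top of the whole list, at rank 2 of 6542 peaks (clone 1 replicate 2) and rank 6 of 1977 (clone 2 replicate 2). The groups overlapped, and percentiles were not tested because they depend on the length of the list.

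Site B stood at 97.3 and 99.2 in the wild-type E2 libraries of clone 1 and at 97.6 and 98.5 in those of clone 2. In D538G with DMSO the lowest was 26.5, the median 96.3 and the highest 98.6. In D538G with E2 the lowest was 77.2, the median 97.8 and the highest 99.4. B was the strongest peak of the window in all 4 wild-type E2 lists. In the D538G lists that place was shared, since A led in 3 of 6 DMSO and 3 of 6 E2 lists, B in 2 and 2, C in 1 DMSO list and D in 1 E2 list.

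The order of A and B depended on the measure. By signal value, A was lower than B in 4 of 4 wild-type E2 lists, at 0.433 to 0.818 of the value of B. In D538G, A was higher in 3 of 6 lists with DMSO (ratios of 0.354 to 6.83) and in 3 of 6 with E2 (0.264 to 3.73). By the −log10 p of the deposited lists, A was the higher of the pair in 2 of 4 wild-type E2 lists, 4 of 6 D538G DMSO lists and 3 of 6 D538G E2 lists. The uniform order in the wild-type E2 lists therefore held for the signal value only. In the wild-type DMSO list of clone 2 replicate 2, A was the higher by both measures, with a signal ratio of 1.01.

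Site C stood at 77.5 and 91.3 in the wild-type E2 libraries of clone 1 and at 57.1 and 90.5 in those of clone 2. In D538G with DMSO its lowest percentile was 74.4, the median 94.1 and the highest 98.7, and with E2 these were 84.4, 90.7 and 97.5. Site D stood at 68.2 and 94.9 in wild-type E2 clone 1 and at 89.8 in clone 2 replicate 2, and had no peak in clone 2 replicate 1. Where D had a peak in D538G, its percentile ran from 64.6 to 98.4 with DMSO and from 79.3 to 98.6 with E2. Percentiles at C and D overlapped between these 3 groups.

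**Figure D3:**
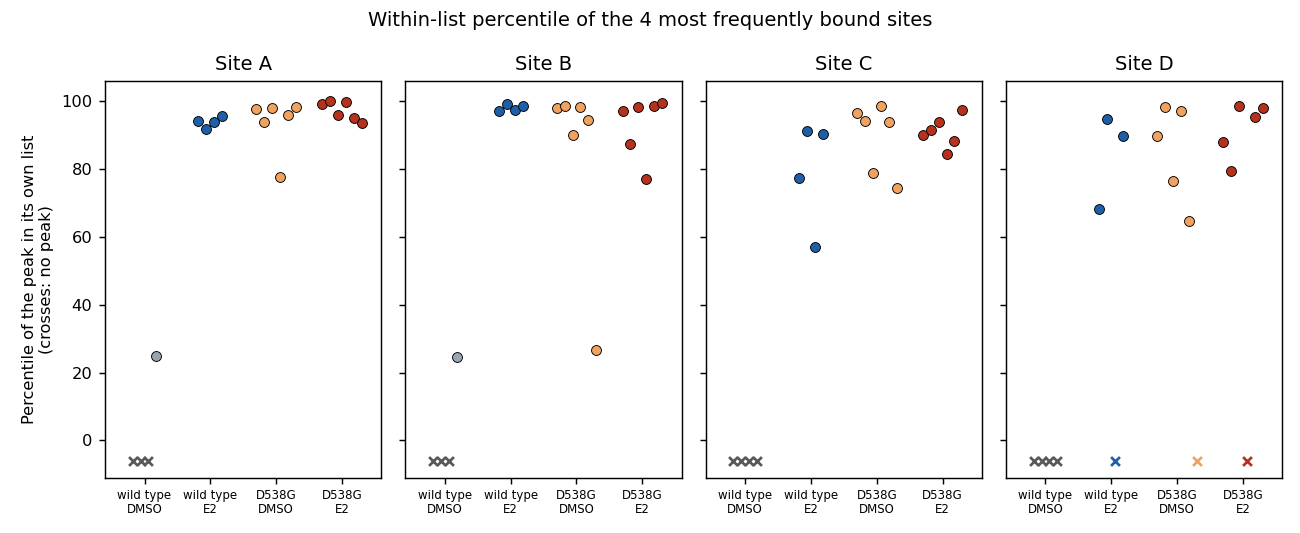
Percentile of the strongest peak at sites A to D within its own list, 1 point per library by group, where 100 is the strongest peak of a list. Crosses below 0 mark libraries with no peak, and the 3 groups other than wild-type DMSO overlap at each site.

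The position of the summit differed in sharpness between the sites. At site C the summits of all 16 libraries lay between 233307559 and 233307564, a span of 5 bp. At site A the 17 summits spanned 50 bp (233239986 to 233240036), and 16 of them lay within 25 bp of the median. At site B the span was 104 bp and at site D 565 bp, so D was the most spread of the 4. The lowest summit at D, 233322509, was in D538G DMSO clone 2 replicate 1. That list had another, weaker peak at D with its summit at 233322976. A smaller neighbour of B, the region chr2:233298331-233298807, had peaks in 6 libraries with summits within 7 bp.

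Sites A, C and D each held a second, separately called peak in some libraries. At A it had its summit between 233238824 and 233238933, in 3 wild-type E2 lists (percentiles 2.57 to 14.5) and 2 D538G E2 lists (71.5 and 87.4). At C it had its summit between 233306899 and 233306917, in 2 wild-type E2 lists (67.5 and 82.1) and 2 D538G E2 lists (40.7 and 90.1). No DMSO list had such a peak called apart from the main one at A or C. In the D538G DMSO list of clone 1 replicate 2, however, 1 broad peak covered these places at both sites, with widths of 2297 and 1198 bp. At D the weaker of 2 called peaks had its summit at 233322490 in 1 wild-type E2 list (percentile 11.4). It was at 233322461 in 1 D538G E2 list (18.0) and at 233322976 in 1 D538G DMSO list (34.9). How often regions of the genome hold a second peak in 1 treatment only was not counted.

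At site B the summits of the genotypes did not overlap. In the 5 wild-type libraries with a peak they lay between 233299370 and 233299401, and in the 12 D538G libraries between 233299297 and 233299359. Under E2 the D538G mean minus the wild-type mean was -44.7 bp, lower in coordinate (exact permutation p = 0.00476, the smallest possible here). With Benjamini-Hochberg adjustment over 1112 regions with a peak in all 10 E2 libraries, the adjusted p was 0.588, so it did not pass. Over those regions 5.94% had an unadjusted p under 0.05, 1.53% did not overlap between the genotypes and 0% passed after adjustment. A difference as large as that at B occurred in 19.9% of them. With clone means in place of libraries the exact permutation p was 0.1, the smallest that 2 against 3 clones allow. This comparison was chosen after the summits had been seen.

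Within D538G the mean summit of B lay 23.8 bp higher in coordinate with E2 than with DMSO, on the side of the wild-type summits (exact permutation p = 0.0303, adjusted p = 0.981 over 704 regions with a peak in all 12 D538G libraries). The groups overlapped. Among the 704 regions, 3.98% had an unadjusted p under 0.05, 0.284% did not overlap and 0% passed after adjustment. As large a difference as that at B between treatments occurred in 31.0% of them. At A and C the summits of the genotypes under E2 differed by 6.25 bp (exact permutation p = 0.586) and 0.333 bp (exact permutation p = 0.629).

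**Figure D4:**
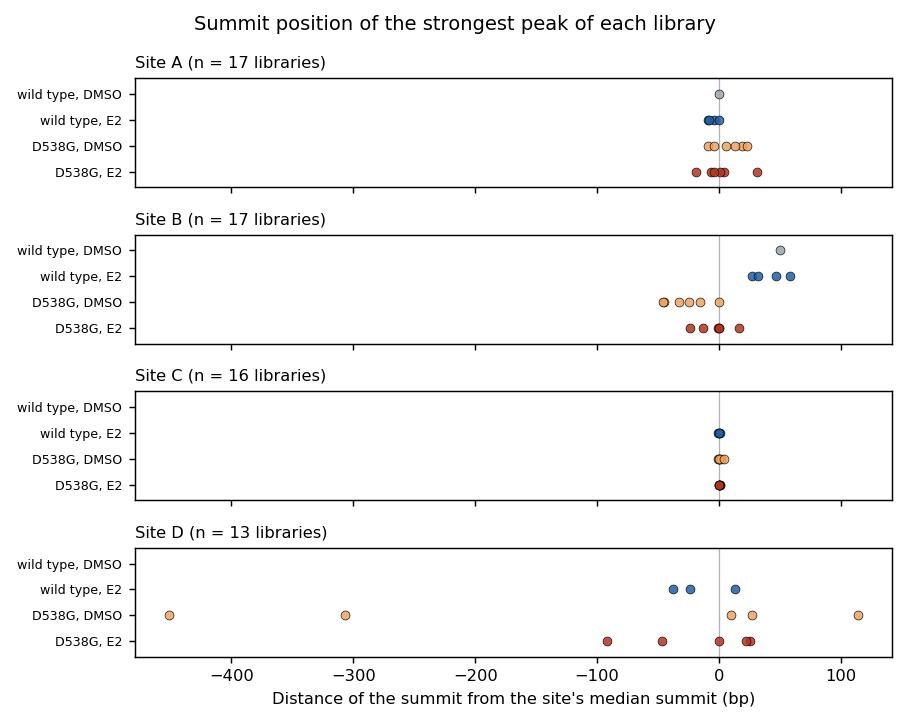
Distance in bp of the summit of the strongest peak in each library from the median summit of its site, by group, 1 point per library. Site C lies within 5 bp, and at site B the 5 wild-type libraries lie to the right of all 12 D538G libraries.

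Of the next 8 regions by number of libraries, chr2:233232225-233233395 and chr2:233356704-233357990 each had peaks in 10 libraries, in wild type 0 of 4 with DMSO and 2 of 4 with E2, and in D538G 3 of 6 with DMSO and 5 of 6 with E2. Their median percentiles were 82.0 and 48.2. The regions chr2:233308796-233309990 (9 libraries), chr2:233283985-233286363 (8) and chr2:233242493-233243643 (8) followed, with median percentiles of 67.5, 76.7 and 37.0. The region chr2:233298331-233298807 beside B, chr2:233201054-233201723 and chr2:233305230-233306016 had peaks in 6 libraries each.

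Among the 33 regions with peaks in at least 2 libraries, 12 had them in D538G libraries only (36.4%) and 0 in wild-type libraries only. Over the 52609 such regions of the genome the shares were 27.3% and 1.55%, so D538G-only regions outnumbered wild-type-only regions over the genome too. None of the 12 was in more than 4 libraries, and D538G had 12 libraries against 8. The region with 4 was chr2:233280424-233281204, with 2 D538G DMSO and 2 D538G E2 libraries. For treatment, 2 of the 33 had peaks in E2 libraries only (6.06%) and 0 in DMSO libraries only, against 9.91% and 6.79% over the genome. The 2 were chr2:233244116-233244696, with 3 of 4 wild-type E2, 2 of 6 D538G E2 and 0 of 10 DMSO libraries, and chr2:233338035-233338423, with 2 D538G E2 libraries. No region of either kind passed the test of presence.

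The density of bound regions in the window was compared with the rest of the genome by cutting it into 19085 tiles of 160 kb. The window held 33 regions with peaks in at least 2 libraries, where the median tile held 1, and 144 tiles (0.755%) held as many or more. For regions in at least 10 libraries the window held 6, and 133 tiles (0.697%) held as many or more. For regions in all 16 libraries outside the wild-type DMSO group the window held 3, and 31 tiles (0.162%) held as many or more. The window was chosen with earlier results of these data known, so these shares describe it and were not tested.

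The adjoining tiles were dense as well, though less so. The tile on the lower-coordinate side and that on the higher-coordinate side each held 12 regions with peaks in at least 2 libraries, and 4 each in at least 10 libraries. Of regions in all 16 libraries they held 1 and 0. Summed over the libraries of each group, the adjoining tiles had 1 and 6 peaks in wild-type DMSO and 19 and 20 in wild-type E2. In D538G they had 33 and 39 with DMSO and 34 and 34 with E2. The sums in the window were 5, 52, 85 and 83. Wild-type DMSO was lowest throughout, but less clearly on the higher-coordinate side. All 6 peaks there were in the list of clone 1 replicate 2. The wild-type E2 lists of 35344 and 31108 peaks had 9 and 7 there. In the window these lists had 3, 22 and 18, in the same order.

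**Figure D5:**
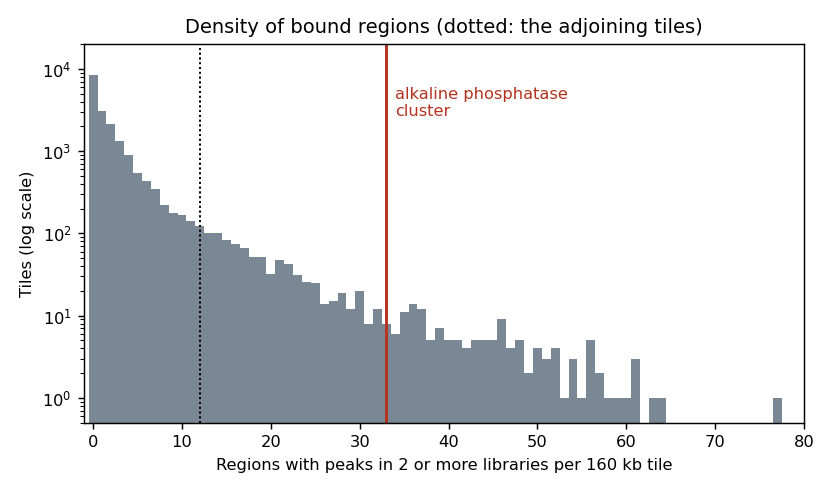
Number of 160 kb tiles of the genome (vertical axis, log scale) by the number of regions with peaks in at least 2 libraries that each holds (horizontal axis). The alkaline phosphatase window (solid line) lies at 33, and both adjoining tiles (dotted line) lie at 12.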

How the data were processed

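ESR1 ChIP-seq peak lists of 20 libraries were used. Per the submitters' processing notes, Bowtie, MACS2 and DESeq2 were among the tools and the build was hg19, with roles and versions not given in the sources used here. The deposited lists were called per library and give for each peak a signal value and a −log10 p, which was above 10 in every list; what the signal is relative to is not stated, so both served only for order inside each list. The score column of the deposited lists, the −log10 p times 10 without decimals, was not used. Peak names include the word Input in 4 D538G lists (clones 1 and 2, replicate 1) and not in the others. Depth is unknown.

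Peaks were merged (1 bp overlap), counted in the window and compared by exact permutation and Fisher's exact tests (scipy 1.17.1, Python 3.11.15), adjusted over all regions. Scripts were tested on simulated data. Members and regions were chosen with earlier results of these data known. All window regions in at least 2 libraries were eligible to be named by position, the 12 in most libraries first. The summit comparison, the counts per 1000 list peaks and those without the lists of 45 and 51 peaks were added after seeing the data. E2 and DMSO libraries with the same clone and replicate number come from the same cell line and form pairs; wild-type and D538G libraries share only a number. Other alternatives were a −log10 p of at least 20, the 1000 strongest peaks, clone means, the replicate block, other overlap rules and leaving out each library. RefSeq on GRCh38.p14 gave the gene order, the promoter sequences and positions within them, and its chromosome coordinates were not set against the peaks.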

Additional observations from a re-analysis of the deposited data

Results flagged for a closer look

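Within groups of 4 to 6 libraries, 23 searches were made for a library far from the rest, and 5 found one. The rule finds one in about 1 of 20 searches if values are independent and normal. Counts and percentiles from lists of unlike length are not such values, and 2 of the 5 were the same library. Among D538G E2 libraries, clone 3 replicate 2 had 38 peaks in the window, with 13 in the next, and its peaks covered 19339 bases of the window, with 7352 in the next. Its list was also the longest of that group, with 49223 peaks. Among wild-type DMSO libraries, clone 2 replicate 2 had 1.85 window peaks per 1000 peaks of its list, from 2 peaks, and the next had 0.103. Among D538G DMSO libraries, site B stood at percentile 26.5 in clone 3 replicate 2, where the next lowest was 89.98, and site A stood at 77.6 in clone 2 replicate 2, where the next lowest was 94.0. The part of list length and of depth in these values was not tested.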

How the results depend on the processing

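No comparison of peak number or presence passed an adjusted p of 0.05 under any alternative run, and the smallest adjusted p was 0.0833. Some of these tests could hardly pass. Clone means in wild type gave an exact permutation p of 0.333, the smallest that 2 against 2 clones allow. With 4 against 4 libraries the exact permutation p cannot fall under 0.0286. The shared failure to pass is therefore no measure of stability. Of 105 alternatives for peak number, 15 turned the direction and 3 gave a difference of 0. Presence at the 4 sites was equal between some groups, so there was no direction to keep, and 20 alternatives moved such a share away from 0. Among them, site C between treatments in D538G went to -50 percentage points (2 of 6 against 5 of 6 libraries, Fisher's exact p = 0.242) among the 1000 strongest peaks of each list, and site D in the same comparison ran from -16.7 to 16.7 without each library. With a −log10 p of at least 20, the D538G minus wild-type difference under E2 was -1.75 peaks. Per 1000 list peaks and without the lists of 45 and 51 peaks, which leaves 2 wild-type DMSO libraries, the differences were -0.260 (E2 against DMSO, wild type), 0.00431 (the same, D538G), -0.0707 (D538G against wild type, DMSO) and 0.381 (E2 effect, D538G minus wild type), and the cause was not tested. Over all lists the same 4 differences were 0.229, 0.00431, 0.418 and -0.225. Leaving out each library gave differences in peak number of 8.75 to 14.75 (E2 against DMSO, wild type), -5.17 to 3.83 (the same, D538G, above 0 without either DMSO list of clone 1 replicate 2 or clone 2 replicate 2 or any 1 of the 4 E2 lists of clones 1 and 2), 8.75 to 15.15 (D538G against wild type, DMSO), -4.0 to 3.83 (the same, E2) and -19.15 to -6.75 (E2 effect). The share of libraries with a peak at site D under E2, D538G minus wild type, ran from -16.7 to 25 percentage points and was below 0 only without wild-type E2 clone 2 replicate 1, the wild-type E2 list that lacked it. The summit difference at B between genotypes ran from -49.3 to -39.0 bp without each library, and that at C between treatments in D538G from -0.867 to 0.133 bp, above 0 only without D538G DMSO clone 3 replicate 2. With the replicate block the exact p-values for peak number were 0.125, 1, 0.11, 0.94 and 0.35, and no adjusted call changed. Regions with an unadjusted p under 0.05 went with the block from 2731 to 0 (E2 against DMSO, wild type), 9 to 0 (the same, D538G), 1150 to 491 (D538G against wild type, DMSO) and 434 to 197 (the same, E2). Depth is unknown and limits what an absent peak means.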
